A study of Cucumis x hytivus and Cucumis hystrix and Cucumis sativus with 8 samples.

Results

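Young leaves of a synthetic Cucumis allotetraploid were set against mature leaves of both its diploid parents by small RNA sequencing, to see which microRNA (miRNA) levels differed from both parents alike. The members are the 6 libraries of these groups, chosen by their titles, out of 8 in the series, with 2 libraries a group. The young group is the first leaf from the top of HHCC, the allotetraploid Cucumis × hytivus, in the 10th generation of selfing. Its 2 parents gave their first fully developed leaf: HH is the wild C. hystrix and CC the cucumber cultivar C. sativus 'BeijingJietou'. The 2 remaining libraries, mature HHCC leaves, entered the fit and are given beside some results. Genotype, ploidy and leaf age differ together between the young allotetraploid and either parent, so their parts in a difference cannot be told apart. The labels do not say that libraries of a group came from separate plants. A p-value here sets a difference against the spread between the 2 libraries of a group, estimated over all groups together, mature allotetraploid included. That spread may be a technical one. These are bulk leaf samples, in which fewer cells of a type and less RNA per cell cannot be told apart.

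Plant miRNAs are short RNAs cut by Dicer-like enzymes from the stem of a hairpin transcript. One strand is loaded into an ARGONAUTE protein and guides it to messages with a nearly complementary site, while the other strand of the duplex, from the opposite arm, is mostly degraded. Many conserved plant families act on transcription factors that set the juvenile or adult phase, leaf polarity and meristem activity. A further set, which in Arabidopsis is switched on when copper is scarce, acts on messages for copper proteins.

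The sequences that carry the results are shown first, 5′ to 3′ as the deposited table lists them, with T for U and the seed (bases 2 to 8) in capitals. The first set belongs to the copper protein list and had lower values in young leaves in both comparisons, apart from miR398b, which is shown because it differs from miR398a in its seed and in its values.
miR408: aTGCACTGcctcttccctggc
miR408-5p: cGGGGAACagacagagcatga
miR397: tCATTGAGtgcagcgttgatg
miR398a: tGTGTTCTcaggtcgcccctg
miR398b: tTGTGTTCtcaggtcacccct

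The second set holds miR156b, of the juvenile and adult phase list, and a sequence from the other part of a miR156 hairpin, which had no read in young leaves.
miR156b: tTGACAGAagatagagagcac
miR156i-p3: tAGTATGTgctcatttctcttt

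The third set holds entries with the highest young-leaf values relative to both parents, next to the abundant miR166a and miR171a that share their hairpin families.
miR166a: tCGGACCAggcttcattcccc
miR166g-5p: gGAATGTTggctggctcgagg
miR166e-5p: aATGTTGGctggctcgaggct
miR171a: tGATTGAGccgcgccaatatc
miR171e-p5: tATTGGTCcggttcactcaga
miR171d-p5: aGATGTTGgtccggttcaata
miR390a: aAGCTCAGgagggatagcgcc
miR530b: tGCATTTGcacctacaccttc

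The last pair is a predicted miRNA that separated the parents and the most abundant entry of a fragment-like family.
PC-169-5p: tCGGGAATagccacacaactc
miR5368-p5: gATACCACtctggaagagc

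The table held 733 different mature sequences (entries) of 18 to 25 nt, of which 208 had enough reads to be tested. Those 208 took at least 99.47% of the listed reads of each library. With each sequence counted once, the libraries held 464306 and 377442 listed reads in the young pair, 348088 and 220793 in the C. hystrix pair and 239730 and 99196 in the C. sativus pair. The young libraries were the deepest, and the second C. sativus library was the shallowest. Spearman correlations between the libraries of a group, over the 208 entries, were 0.952 in the young pair, 0.823 in the C. hystrix pair and 0.572 in the C. sativus pair. The C. sativus pair was thus the least alike. Levels are given in CPM, counts relative to a library size scaled by TMM, a method that assumes that most entries do not change. The factor of the second C. sativus library was 2.00, against 0.762 to 1.25 in the others.

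Against both parents alike, young allotetraploid leaves had less miR408 and less of its partner strand miR408-5p, and no entry passed the test in the other direction. A difference was called at a Benjamini-Hochberg adjusted p under 0.05 in edgeR's quasi-likelihood test, fitted over all 8 libraries. Of the 208 entries, 0 were higher and 2 lower against both parents, and the lower calls made up 0.962% of those tested. With unadjusted p under 0.05 against each parent, 4 entries were higher (1.92%) and 12 lower (5.77%), and 1 had opposite signs (0.481%). DESeq2 called 4 higher and 7 lower against both, and limma-voom called 0 higher and 1 lower. Against C. hystrix alone 0 entries were higher and 3 lower (1.44% called), and 25 had an unadjusted p under 0.05 (12.0%). Against C. sativus alone 1 was higher (0.481%) and 2 lower (1.44% called in all), and 36 had an unadjusted p under 0.05 (17.3%). Against the parents' mean log level 0 were higher and 2 lower (0.962% called), the same miR408 pair. Young minus mature allotetraploid, given beside the results, had 0 higher and 4 lower (1.92% called), and 27 with an unadjusted p under 0.05 (13.0%). All these comparisons share the young libraries, so they are not independent of each other.

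miR408, which in Arabidopsis acts on messages for plantacyanin and laccases, had 273.7 and 75.8 CPM in young allotetraploid leaves, 31791 and 2930 CPM in C. hystrix and 28529 and 8138 CPM in C. sativus. Both young libraries lay below all 4 parental libraries, by more than 10-fold even against the lowest of them, although the libraries of each group differed widely among themselves. The log2 fold change was -6.63 against C. hystrix (SE 1.44, 95% interval -9.66 to -3.60, edgeR adjusted p = 0.031) and -6.71 against C. sativus (SE 1.44, 95% interval -9.75 to -3.67, edgeR adjusted p = 0.015). C. hystrix minus C. sativus was -0.08 (95% interval -2.44 to 2.29), so the parents themselves did not differ beyond their spread. Mature allotetraploid leaves, of the same genotype as the young ones, had 17360 and 4258 CPM, and young minus mature allotetraploid was -5.95 (edgeR adjusted p = 0.029). The hairpin is listed at chr5:20905079-20905292 on the plus strand, in a build not given in the sources used here.

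miR408-5p comes from the same hairpin and had 17.7 and 8.74 CPM in young leaves, 2083 and 341.9 CPM in C. hystrix and 2598 and 5167 CPM in C. sativus. Its log2 fold changes were -6.46 (SE 1.5, edgeR adjusted p = 0.031) against C. hystrix and -8.14 (SE 1.60, edgeR adjusted p = 0.0092) against C. sativus. Both strands of the hairpin were therefore lower in young leaves, and the share of miR408 family reads carried by miR408-5p was 6.09% and 10.3% in young leaves, 6.15% and 10.4% in the C. hystrix pair and 8.34% and 38.6% in the C. sativus pair. These young shares rest on 7 and 3 reads of miR408-5p. The third tested entry, the shortened miR408a-3p, had 0 reads in both young libraries, 8 reads in the C. hystrix pair and 32 in the C. sativus pair. Against a floor of 3 reads over the group it was at least 4.35-fold lower than in C. hystrix and at least 15.9-fold lower than in C. sativus (edgeR adjusted p = 0.34 and 0.096).

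The joint call of miR408 and miR408-5p was lost when either young, either mature allotetraploid or either C. hystrix library was left out, and with the 6 compared libraries fitted alone (for miR408, adjusted p = 0.073 against C. hystrix and 0.054 against C. sativus). Without the first C. hystrix library the log2 fold change of miR408 against C. hystrix was -4.13 (edgeR adjusted p = 0.23).

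**Figure D1:**
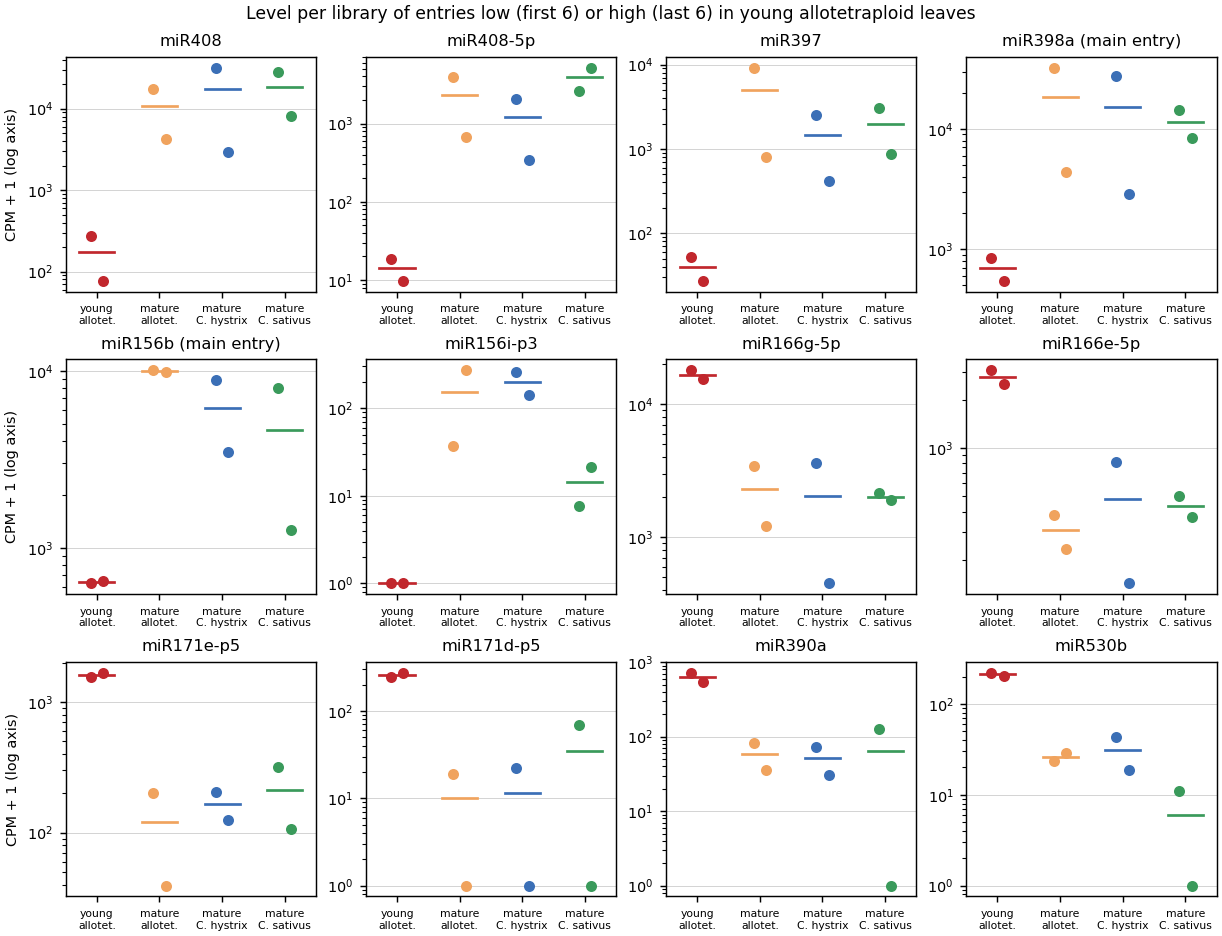
Level of 12 entries in every library, as CPM + 1 on a log axis, with 1 point per library, a horizontal line at each group mean, and the groups young allotetraploid, mature allotetraploid, mature C. hystrix and mature C. sativus in that order. In the first 6 panels both young points lie below all 4 parental points, as for miR408 with 273.7 and 75.8 CPM in young leaves and no parental library under 2930 CPM; in the last 6 both lie above them.

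The other families of the copper protein list had lower values in young leaves as well. miR397 guides the cutting of laccase messages in Arabidopsis and had 50.7 and 26.2 CPM in young leaves, 2526 and 418.5 CPM in C. hystrix and 3056 and 860.4 CPM in C. sativus. The groups did not overlap, and the log2 fold changes of -5.24 (SE 1.5) and -5.65 (SE 1.52) missed the threshold, with edgeR adjusted p = 0.11 against C. hystrix and 0.051 against C. sativus. Its partner strand miR397-p3 had 0 reads in both young libraries, 11 in the C. hystrix pair and 81 in the C. sativus pair. It was at least 5.99-fold and at least 40.3-fold lower than in these parents (edgeR adjusted p = 0.31 and 0.051), and the second C. hystrix library had none either. The miR397 hairpin is listed at chr1:7211715-7211804 on the plus strand.

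miR398, which in Arabidopsis lowers copper/zinc superoxide dismutases, was split between its members. The most abundant miR398a entry, at chr1:24920780-24920890 on the plus strand, had 846.4 and 542.2 CPM in young leaves, 27692 and 2865 CPM in C. hystrix and 14372 and 8401 CPM in C. sativus. Its log2 fold changes were -4.46 (SE 1.26, edgeR adjusted p = 0.11) and -4.03 (SE 1.23, edgeR adjusted p = 0.084). All 3 tested miR398a entries, which share the seed GTGTTCT shown in the first set, lay below all 4 parental libraries in both young libraries. Of all tested, 13.9% did so. The third of them held only 3 reads in the young pair, 15 in the C. hystrix pair and 123 in the C. sativus pair. The second miR398a entry, 1 base shorter, had 91.2 and 29.1 CPM in young leaves, 715.7 and 106.1 CPM in C. hystrix and 525.1 and 2277 CPM in C. sativus. miR398b, whose seed is TGTGTTC, had 471.4 and 378.9 CPM in young leaves, 400.4 and 47.2 CPM in C. hystrix and 346.7 and 425.1 CPM in C. sativus. Its groups overlapped, and its log2 fold changes were 0.91 (SE 1.08) and 0.14 (SE 1.07), with edgeR adjusted p = 0.88 and 0.97. The difference between miR398a and miR398b was not tested. The main miR398a sequence and miR398b are near-identical, so reads could be split between them in counting.

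Summed over a family, the reads gave a joint call in 3 cases, all lower and all of the copper protein list. The family fit covered 54 family sums and 44 single entries without a family number, and 0 of these 98 were higher and 3 lower against both parents (3.06% called). In this fit a sequence counts once per line it is listed at, so library sizes were larger than for single entries. Family CPM and entry CPM are therefore not on 1 scale and cannot be compared. Against C. sativus alone 1 was higher (1.02%) and 5 lower (5.1%), and 1 was higher in C. hystrix minus C. sativus (1.02%). The miR408 family had 114.2 and 35.7 CPM in young leaves, 12997 and 1346 CPM in C. hystrix and 13996 and 9949 CPM in C. sativus, with log2 fold changes of -6.57 (SE 1.3) and -7.31 (SE 1.34) and edgeR adjusted p = 6.1e-05 and 5.9e-06. The miR397 family had 19.7 and 10.7 CPM in young leaves, 984.2 and 174.2 CPM in C. hystrix and 1453 and 753.5 CPM in C. sativus, with log2 fold changes of -5.23 (SE 1.14) and -6.16 (SE 1.19) and edgeR adjusted p = 0.00028 and 1.1e-05. The miR398 family had 575.8 and 410.4 CPM in young leaves, 11094 and 1244 CPM in C. hystrix and 6905 and 8516 CPM in C. sativus, with log2 fold changes of -3.64 (SE 1.13) and -3.97 (SE 1.15) and edgeR adjusted p = 0.044 and 0.015. In all 3 families the second C. hystrix library came closest to the young ones. All 3 joint calls were lost without either young library, without the first C. hystrix library and without either C. sativus library, that of miR397 under limma-voom, and that of miR398 without either mature allotetraploid library and under 6 further settings. Without the first C. hystrix library the log2 fold changes against that parent were -4.16 for miR408, -3.50 for miR397 and -1.33 for miR398.

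Over the whole copper protein list, 10 of 15 listed entries had enough reads to be tested. In 7 of the 10 both young libraries lay below all 4 parental libraries and in 0 above, against 29 below (13.9%) and 39 above (18.8%) of all 208 tested. Some of the 10 are strands of 1 hairpin or length variants of 1 sequence, so they are not independent. The test called 2 of the 10 lower against each parent, beside 1.44% of all tested against C. hystrix and 0.962% against C. sativus. It called 0 of the 10 higher, beside 0% and 0.481% of all tested. The median log2 fold change of the list was -4.81 against C. hystrix and -5.81 against C. sativus (-2.90 and -4.93 with entries without young reads at their bound), beside medians of -0.03 and 0.01 over all tested. As a share of all listed reads, each sequence once, the list took 0.155% and 0.102% in young leaves, 5.3% and 0.517% in the C. hystrix pair and 6.18% and 5.18% in the C. sativus pair. The young shares were the lowest of the 8 libraries, and mature allotetraploid leaves, at 6.94% and 0.801%, spread as widely as C. hystrix. An exact two-sided permutation test of the 2 young against the 4 parental shares gave p = 0.13, the smallest p this design allows. miR398 is also on the phloem sap list, a marker of vascular content, which took 0.167% and 0.124% of listed reads in the young pair, 2.41% and 0.250% in the C. hystrix pair and 1.95% and 2.38% in the C. sativus pair. Of its 8 tested entries 3 lay below (37.5%) and 1 above (12.5%) the parental range, beside 13.9% and 18.8% of all tested. The part of vascular content in the copper result was not tested.

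**Figure D2:**
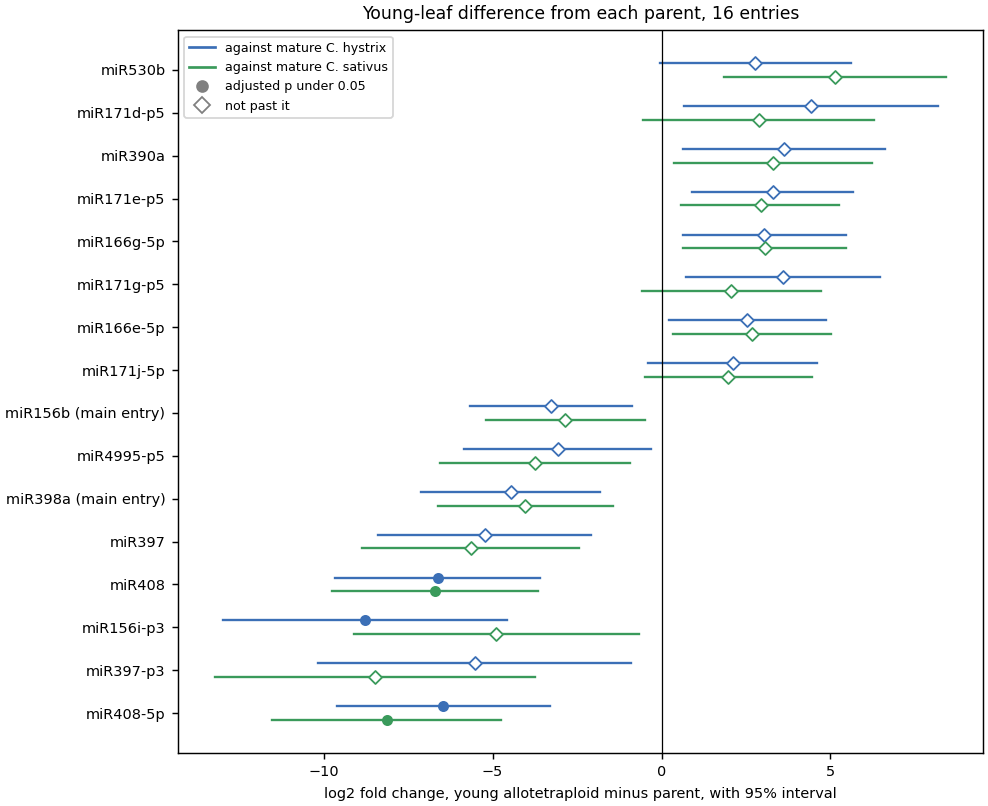
Log2 fold change of young allotetraploid minus each parent for 16 entries, with 95% intervals; filled circles have an adjusted p under 0.05 and open diamonds do not. The intervals of miR408 reach from -9.66 to -3.60 against C. hystrix and from -9.75 to -3.67 against C. sativus, while all 8 entries with higher young values are drawn as open diamonds.

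In the miR156 family, of the juvenile and adult phase list, 10 of 13 tested entries had log2 fold changes below 0 against both parents. Another 3 (miR156d-p3, miR156j-p3 and miR156b-5p) were above 0 against 1 parent. Of all 208 tested, 105 lay below 0 against C. hystrix and 101 against C. sativus. The number of all entries below 0 against both was not counted. Some of the 13 miR156 entries are variants or strands of 1 hairpin, so they are not independent. No joint call was made in edgeR's fit of all 8 libraries. DESeq2 called miR156i-p3 and 2 miR156b entries lower against both parents, and edgeR without the second C. sativus library called 2 miR156b entries and miR156b-p3 lower. miR156 holds back SPL transcription factors and is high in the juvenile phase, and miR172, its counterpart, acts on AP2-like factors and is known to rise with plant age. miR156b had 631.0 and 650.0 CPM in young leaves, 8896 and 3478 CPM in C. hystrix and 7994 and 1265 CPM in C. sativus. Both young libraries lay below all 4 parental libraries, and the log2 fold changes were -3.27 (SE 1.14, edgeR adjusted p = 0.27) and -2.85 (SE 1.12, edgeR adjusted p = 0.19). Mature allotetraploid leaves had 10077 and 9830 CPM, above every parental library. The hairpin is listed at chr1:2522424-2522602 on the plus strand, and its other strand miR156b-p3 had log2 fold changes of -2.41 (SE 1.16) and -2.90 (SE 1.18).

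miR156i-p3, listed at chr2:1701649-1701821 on the plus strand, had 0 reads in both young libraries. It had 255.1 and 141.5 CPM in C. hystrix and 6.73 and 20.2 CPM in C. sativus, and 35.8 and 271.3 CPM in mature allotetraploid leaves. It was at least 52.2-fold lower than in C. hystrix (edgeR adjusted p = 0.031) and at least 2.98-fold lower than in C. sativus, where the pair held 6 reads (edgeR adjusted p = 0.20). The call against C. hystrix was lost when either young, mature allotetraploid or C. hystrix library was left out, and with the 6 compared libraries alone (adjusted p = 0.073). The same hairpin is listed with miR156a, a shorter miR156, which had 217.9 and 271.1 CPM in young leaves, 637.7 and 530.5 CPM in C. hystrix and 797.7 and 65.8 CPM in C. sativus, with overlapping groups.

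The juvenile and adult phase list had 19 tested entries of 40. In 4 both young libraries lay below the parental range (21.1%, beside 13.9% of all tested) and in 0 above (18.8% of all tested). The test called 1 of the 19 lower against C. hystrix and 0 against C. sativus, beside 1.44% and 0.962% of all tested. The median log2 fold change was -1.11 against C. hystrix and -0.68 against C. sativus. The miR156 family sum did not pass, at -1.73 (edgeR adjusted p = 0.69) and -1.30 (edgeR adjusted p = 0.57). miR172b had 174.9 and 166.2 CPM in young leaves, 311.8 and 282.9 CPM in C. hystrix and 269.3 and 55.7 CPM in C. sativus. It lay below both C. hystrix libraries and between the C. sativus libraries, with log2 fold changes of -0.80 (SE 1.04) and 0.06 (SE 1.03), and the sign of the second turned under the other scalings. The list took 0.366% and 0.408% of listed reads in the young pair, 1.57% and 0.909% in the C. hystrix pair and 2.16% and 0.525% in the C. sativus pair. The young libraries were lowest (exact two-sided permutation p = 0.13, the smallest this test can give).

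In the leaf polarity family miR166, 6 of 14 tested entries lay above the parental range in both young libraries and 0 below it, beside 18.8% and 13.9% of all tested. Of the 6, 3 were above under all 4 scalings tried, and these 3 carry a 5p mark. Among all tested, 39 lay above, and 16 did so under all 4 scalings. Some of the 14 miR166 entries are variants or strands of 1 hairpin, so they are not independent. miR166 restricts the HD-ZIP III factors of the upper leaf side, and the strand known to act is the one called miR166a here. The main miR166a entry, listed at 4 loci, had 590607 and 446709 CPM in young leaves, 640711 and 622145 CPM in C. hystrix and 151078 and 83361 CPM in C. sativus. Young leaves lay below C. hystrix and above C. sativus, with log2 fold changes of -0.28 (SE 0.53, edgeR adjusted p = 0.94) and 2.15 (SE 0.56, edgeR adjusted p = 0.05, just outside the threshold). The parents differed, at 2.43 for C. hystrix minus C. sativus (95% interval 1.25 to 3.61, edgeR adjusted p = 0.044). That call held in 2 of 19 alternatives, with adjusted p from 0.0071 to 1.0.

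On the opposite strand, miR166g-5p, listed at chr3:6590348-6590448 on the minus strand, had 18019 and 15327 CPM in young leaves, 3600 and 448.0 CPM in C. hystrix and 2141 and 1893 CPM in C. sativus. Both young libraries lay above all 4 parental libraries, with log2 fold changes of 3.04 (SE 1.14, edgeR adjusted p = 0.31) and 3.05 (SE 1.14, edgeR adjusted p = 0.17). Mature allotetraploid leaves had 3399 and 1217 CPM. miR166e-5p, listed at chr4:18390119-18390328 on the minus strand, had 3061 and 2513 CPM in young leaves, 811.3 and 141.5 CPM in C. hystrix and 498.2 and 369.5 CPM in C. sativus. Its log2 fold changes were 2.54 (SE 1.11, edgeR adjusted p = 0.34) and 2.68 (SE 1.11, edgeR adjusted p = 0.20). miR166f-p5 also lay above the parental range, with 3142 and 2836 CPM in young leaves, 2211 and 477.5 CPM in C. hystrix and 982.8 and 779.4 CPM in C. sativus.

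Within miR166 the reads of the 4 tested entries marked 5p made up 3.41% and 3.74% in young leaves, 0.913% and 0.149% in the C. hystrix pair and 2.02% and 2.36% in the C. sativus pair. Young shares were the highest of the 8 libraries, with mature allotetraploid leaves at 1.46% and 0.453%. The exact two-sided permutation test of young against parental shares gave p = 0.13, the smallest p this test can give with 2 against 4. A share within the family does not depend on the scaling between libraries. On the hairpin of miR166g-5p the other listed entry had log2 fold changes of -0.77 against C. hystrix and 2.48 against C. sativus, and on that of miR166e-5p it had -0.14 and 0.13. Whether a strand differed from its partner was not tested.

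**Figure D3:**
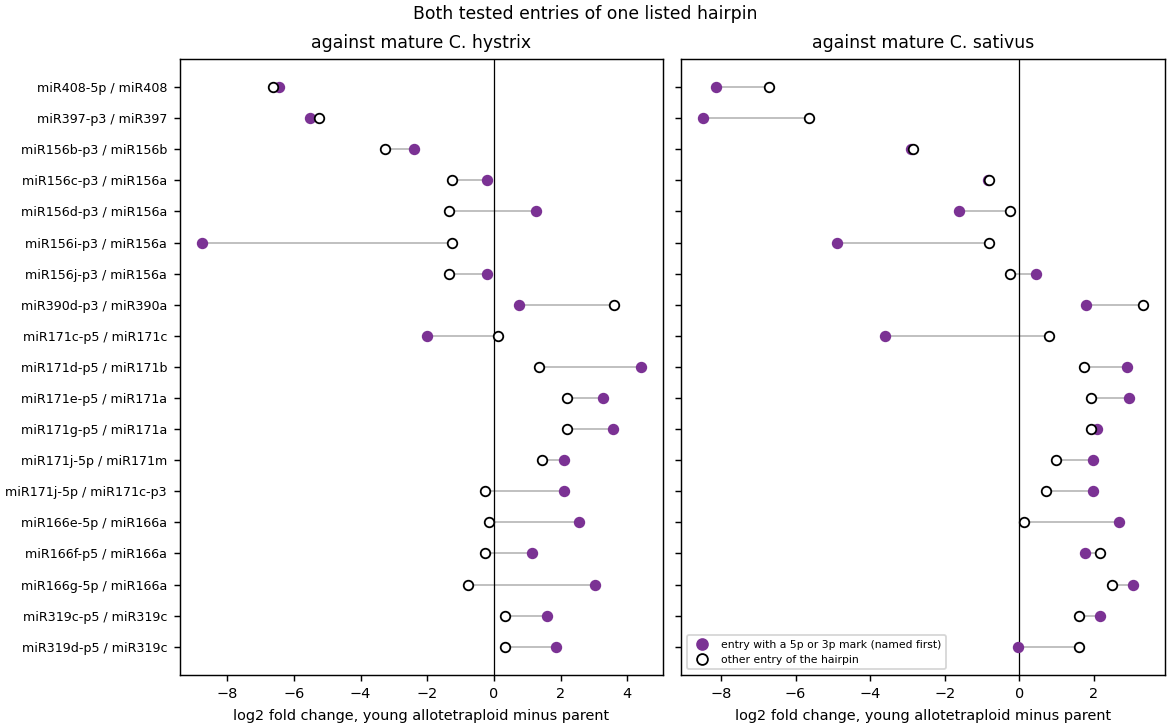
Log2 fold change of young allotetraploid minus C. hystrix (left) and minus C. sativus (right) for 19 pairs of tested entries listed at the same hairpin; the filled point is the entry with a 5p or 3p mark and the open point the other entry. Both points of the miR408 hairpin lie far to the left (-6.46 and -6.63 against C. hystrix), and for miR166g-5p the marked entry lies at 3.04 and its partner at -0.77 against C. hystrix.

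miR171, which acts on GRAS transcription factors that keep meristem cells undifferentiated in Arabidopsis, had the most entries above the parental range. Of 12 tested entries 7 had both young libraries above all 4 parental libraries (58.3%, beside 18.8% of all tested) and 0 below. Some of the 12 are variants or strands of 1 hairpin, so they are not independent. Under scaling to conserved families 5 were above, beside 17 of all 208 tested. With fragment-like families left out 6 were above, beside 18 of all 208. miR171e-p5, listed at chr2:15576606-15576711 on the minus strand, had 1548 and 1682 CPM in young leaves, 205.5 and 123.8 CPM in C. hystrix and 316.4 and 106.3 CPM in C. sativus. Its log2 fold changes were 3.29 (SE 1.13, edgeR adjusted p = 0.27) and 2.93 (SE 1.11, edgeR adjusted p = 0.17). miR171a, the strand known to act, is listed at 3 loci, this hairpin among them. It had 1133 and 839.5 CPM in young leaves, 269.3 and 159.2 CPM in C. hystrix and 511.6 and 10.1 CPM in C. sativus. Both entries were high in young leaves and did not overlap with the parents, but the reads of miR171a cannot be assigned to 1 hairpin.

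The partner strand miR171d-p5 had 243.3 and 274.0 CPM in young leaves, 21.3 and 0 CPM in C. hystrix and 67.3 and 0 CPM in C. sativus, with log2 fold changes of 4.42 (SE 1.79, edgeR adjusted p = 0.31) and 2.88 (SE 1.62, edgeR adjusted p = 0.38). miR171g-p5 had log2 fold changes of 3.59 (SE 1.37) and 2.07 (SE 1.26), and miR171j-5p of 2.10 (SE 1.18) and 1.98 (SE 1.17), and neither passed the test. miR171c, the most abundant member by its mean over libraries, overlapped with the parents, at 1232 and 927.0 CPM in young leaves, 1215 and 766.3 CPM in C. hystrix and 1181 and 55.7 CPM in C. sativus. The family sum was 1.32 against C. hystrix (edgeR adjusted p = 0.90) and 1.35 against C. sativus (edgeR adjusted p = 0.51). Entries marked 5p took 44.5% and 52.6% of miR171 reads in young leaves, 18.3% and 17.5% in the C. hystrix pair and 22.5% and 75.8% in the C. sativus pair, the last from 99 reads. That library lay above both young ones, and the exact two-sided permutation p was 0.53.

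miR390a, which directs the cutting of TAS3 RNA into small RNAs against auxin response factors, had 724.8 and 539.3 CPM in young leaves, 70.9 and 29.5 CPM in C. hystrix and 124.5 and 0 CPM in C. sativus. Mature allotetraploid leaves had 80.6 and 34.8 CPM. The log2 fold changes were 3.62 (SE 1.41, edgeR adjusted p = 0.31) and 3.30 (SE 1.39, edgeR adjusted p = 0.20), and the groups did not overlap. The miR390 family sum was 2.66 (edgeR adjusted p = 0.14) and 2.56 (edgeR adjusted p = 0.083). miR530b had 220.5 and 204.0 CPM in young leaves, 42.5 and 17.7 CPM in C. hystrix and 10.1 and 0 CPM in C. sativus. Against C. sativus, with 157 reads in the young pair and 3 in the parental pair, the ratio was 35.1 (95% counting interval 11.8 to 172.0, edgeR adjusted p = 0.084), and against C. hystrix the log2 fold change was 2.77 (SE 1.35, edgeR adjusted p = 0.39).

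These higher values were called by some tools and not by others. Under DESeq2 the entries called higher against both parents were miR171e-p5, miR390a, miR166g-5p and miR166e-5p. With the first C. sativus library left out, the median log2 fold change of all 208 entries against C. sativus was 1.15, beside 0.01 with both libraries. That parent then rests on 1 library, so calls of that fit are not listed for these entries.

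The auxin signalling list had 18 tested entries, of which 2 lay below (11.1%) and 4 above (22.2%), near the 13.9% and 18.8% of all tested, with 0 called and median log2 fold changes of 0.05 and 0.61. Under scaling to conserved families these medians were -0.26 and -0.01. miR393a, which acts on the TIR1 family of auxin receptors, had 45.6 and 70.0 CPM in young leaves, 120.5 and 524.6 CPM in C. hystrix and 94.2 and 1215 CPM in C. sativus, below all 4. The tested entry listed with it at 1 hairpin, miR393b-p3, overlapped with the parents, with log2 fold changes of 0.68 and -2.55. A 3p entry listed at another hairpin, miR393a-3p, lay above all 4 parental libraries. It had 1019 and 1399 CPM in young leaves, 556.2 and 247.6 CPM in C. hystrix and 764.1 and 40.5 CPM in C. sativus. It was not above the range under all 4 scalings.

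The leaf growth and polarity list, which holds miR159, miR164, miR166, miR171, miR319 and miR396, had 49 tested entries, with 1 below (2.04%), 20 above (40.8%, beside 18.8% of all tested) and 0 called in either comparison. Its median log2 fold changes were 0.66 and 1.3. Under scaling to conserved families 10 were above, beside 17 of all 208 tested, with list medians of 0.34 and 0.67. With fragment-like families left out 11 were above, beside 18 of all 208, with list medians of 0.23 and 0.65. miR159a, which holds back GAMYB-like factors, had 318401 and 402463 CPM in young leaves, 220220 and 305028 CPM in C. hystrix and 368651 and 26940 CPM in C. sativus, and the groups overlapped. miR319a, which acts on TCP factors of leaf growth, had 3888 and 5087 CPM in young leaves, 1385 and 2010 CPM in C. hystrix and 3551 and 86.0 CPM in C. sativus. It lay above all 4 parental libraries, with log2 fold changes of 1.40 (SE 1.27) and 1.3 (SE 1.26).

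For several other entries the young and parental libraries overlapped. miR164a, which limits NAC factors at organ boundaries, had log2 fold changes of -0.39 and 1.35. miR396e-p3, from a hairpin of the growth-regulating factor family, had -1.24 and 0.08, and miR167d, which acts on auxin response factors, had -0.55 and 1.91. miR160a, which acts on other auxin response factors, lay above all 4 parental libraries at 0.99 and 2.84. The small RNA machinery list, whose miR162 and miR168 act on DCL1 and AGO1, had 5 tested entries with 0 below and 0 above. Of all tested, 13.9% lay below and 18.8% above. In this list miR162 was at 0.36 and 0.23, and miR168 at -0.46 and -0.46. The nutrient list had 10 tested entries with 0 below, 1 above (10.0%) and 0 called. Of the nutrient miRNAs, miR395a of sulfate metabolism was at 1.09 and 1.54, miR827 of phosphate status at -2.06 and -1.51, and miR2111a, the 1 above the range, at 0.79 and 2.10. No entry of the resistance gene list, 5 in the table, had enough reads to be tested.

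The shoot apex or primordia list, which shares miR164, miR166 and miR171 with the leaf growth list and adds miR390 and miR394, had 33 tested entries, with 0 below and 16 above (48.5%, beside 18.8% of all tested). Its median log2 fold changes were 1.00 against C. hystrix and 1.78 against C. sativus. Under scaling to conserved families 10 were above, beside 17 of all 208 tested, with list medians of 0.69 and 0.85. With fragment-like families left out 11 were above, beside 18 of all 208, with list medians of 0.59 and 1.06. As a share of reads it took 61.4% and 51.0% in young leaves, 59.4% and 55.1% in the C. hystrix pair and 22.7% and 26.5% in the C. sativus pair, so the young libraries enclosed the C. hystrix pair. miR394a, which marks the outer cell layer of the Arabidopsis shoot apex, had log2 fold changes of 1.55 and 1.08 and overlapped with the parents. The part of apical tissue in the miR166, miR171 and miR390 values was not tested.

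**Figure D4:**
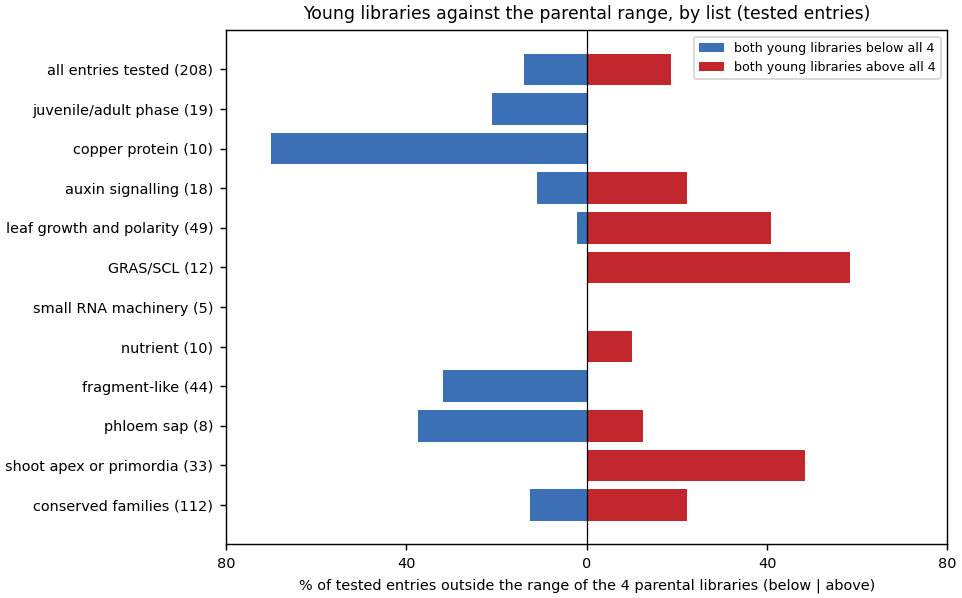
Percent of the tested entries of each list, with their number in parentheses, whose young libraries both lay below (blue, left) or above (red, right) all 4 parental libraries. The copper protein list has 70.0% below and 0% above, the GRAS/SCL list 58.3% above and 0% below, and all tested entries 13.9% below and 18.8% above.

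How many entries lay below or above the parental range depended on how libraries were scaled. All 29 entries below the range under TMM were also below it under each of the other scalings. There were 31 below under RLE scaling, 41 under scaling to conserved families and 40 with fragment-like families left out of the scaling. Above the range there were 39 under TMM, 33 under RLE scaling (31 of them among the 39), 17 under scaling to conserved families and 18 with fragment-like families left out (all among the 39), and 16 were above under all 4. Those 16 include miR160a, miR166e-5p, miR166g-5p, miR166f-p5, miR171a, miR171d-p5, miR171e-p5, miR171j-5p, miR390a and miR530b. Scaling to conserved families moved the median of all 208 entries to -0.34 against C. hystrix and -0.79 against C. sativus, so levels are relative to that choice. The medians of the copper and phase lists stayed below 0 and those of the leaf growth, GRAS and shoot apex lists above 0 under each of the 4 scalings.

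The make-up of the entries below and above the parental range is given without a test. Of the 29 below, 37.9% were 18 or 19 nt long and 48.3% belonged to fragment-like families, and of the 39 above, 5.13% were that short and 0% were fragment-like, beside 19.2% and 21.2% of all 208. Sequences of 21 nt, the usual miRNA length, made up 31% of those below, 51.3% of those above and 42.3% of all. A first base T, which as U is favoured by AGO1, was present in 48.3% of those below, 43.6% of those above and 46.2% of all. The table marks as new 27.6% of those below, 51.3% of those above and 41.3% of all tested.

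The fragment-like list gathers families whose listed sequences resemble pieces of ribosomal or transfer RNA. It had 44 tested entries of 83, with 14 below (31.8%, beside 13.9% of all tested), 0 above (18.8% of all tested) and 0 called in either comparison. Of the 44 log2 fold changes 39 were below 0 against C. hystrix and 42 against C. sativus, beside 105 and 101 of all 208. Its share of listed reads was 6.17% and 6.79% in young leaves, 11.1% and 13.7% in the C. hystrix pair and 17.4% and 58.0% in the C. sativus pair. Young leaves had the lowest shares of the 8 libraries, and the second C. sativus library stood apart (exact two-sided permutation p = 0.13, the smallest this test can give). miR5368-p5, its most abundant entry, had 19331 and 18463 CPM in young leaves, 62303 and 56080 CPM in C. hystrix and 69122 and 117508 CPM in C. sativus, with log2 fold changes of -1.65 (SE 0.71, edgeR adjusted p = 0.34) and -2.30 (SE 0.73, edgeR adjusted p = 0.088). The family sums of miR4995 and miR5368 were lower against C. sativus alone, at -4.22 (edgeR adjusted p = 0.021) and -2.89 (edgeR adjusted p = 0.038). Against C. hystrix they were -3.13 and -1.81, with edgeR adjusted p = 0.19 and 0.61. Both calls were lost without either young and without either mature allotetraploid library. The share of such sequences is a sign of RNA quality, and its part in the values of other lists was not tested.

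**Figure D5:**
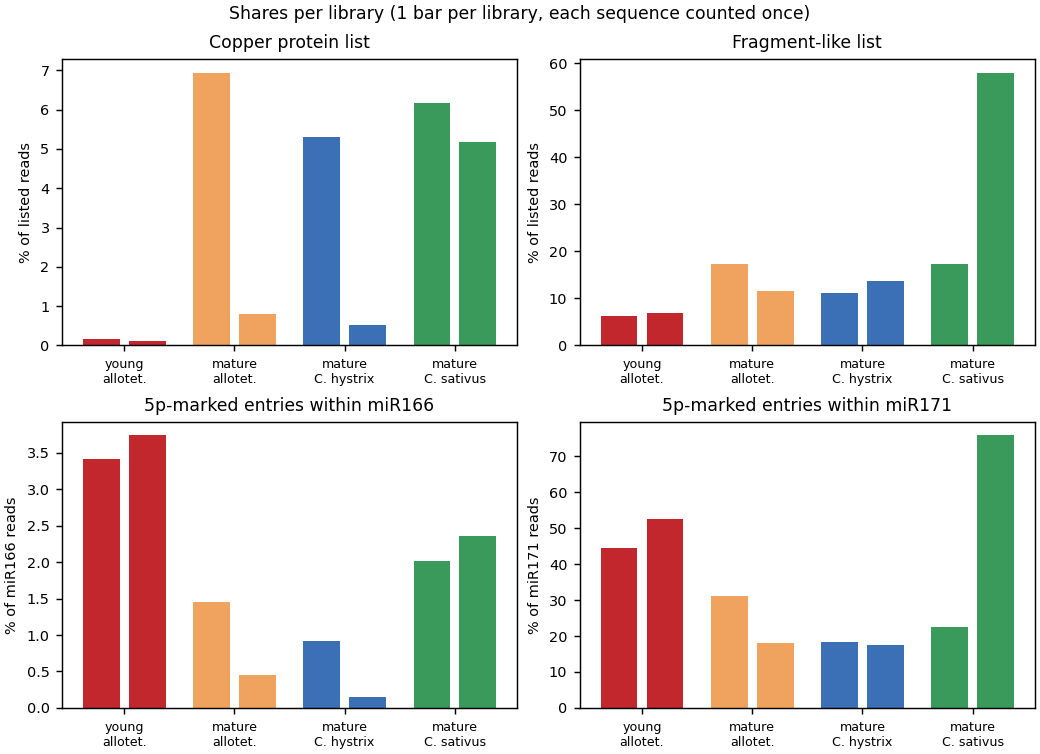
Share of reads per library, 1 bar each, for the copper protein list and the fragment-like list (% of listed reads) and for entries marked 5p within miR166 and miR171 (% of reads of that family). The young bars of the copper list, 0.155% and 0.102%, are the lowest of the 8 libraries; within miR166 they are the highest, 3.41% and 3.74%.

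Only PC-169-5p, a predicted miRNA without a family number, was called higher in young leaves against a single parent in edgeR's test. It had 3804 and 1676 CPM in young leaves, 10880 and 23784 CPM in C. hystrix and 23.6 and 0 CPM in C. sativus. Young leaves lay between the parents, with a log2 fold change of -2.66 against C. hystrix (SE 1.14, edgeR adjusted p = 0.34) and 7.7 against C. sativus (SE 1.47, edgeR adjusted p = 0.0092). Mature allotetraploid leaves, at 3865 and 3649 CPM, lay between the parents too. The locus is listed at chr7:8370983-8371159 on the minus strand.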

How the data were processed

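Small RNA of 8 leaf libraries was read from 1 table. Its raw-read columns, as deposited, were handled as estimated counts because 80.5% of values are whole within 1e-06 and others hold fractions; all were rounded to whole numbers. The normalized reads deposited beside them, a signal equal to raw reads times 1 constant per library, entered no test. The submitters' processing notes name Bowtie 0.12.8. Not given in the sources used here: the genome build, the miRBase release and the counting rule. Coordinates are those of the table, and no gene annotation was used. The labels' protocols mention oligo(dT) beads and no separate small RNA preparation.

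Each sequence was taken once: the 843 lines hold 733 entries, 101 of them at more than 1 line with equal values, and 128 families. Entries passing filterByExpr (208) were scaled by TMM and tested with edgeR 4.0.16 (R 4.3.3, robust quasi-likelihood, group as the only term, 8 libraries, 4 residual degrees of freedom), with two-sided p-values adjusted by Benjamini-Hochberg within a comparison. A standard error (SE) is the log2 fold change divided by the square root of F. Family sums add all lines of a family and were fitted with the entries that lack a family number. The code of the fit was run on simulated data with the same spread in every group. That run does not show how the fit behaves with pairs as unlike as these. Bounds use a floor of 3 reads per group, and such intervals and bounds cover counting error only.

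Named entries were those called alike against both parents, filled to 8 in each direction by unadjusted p, up to 5 further calls a parent and direction, the 10 most abundant entries and the most abundant entry of each listed family. Partner strands, further members of those families (miR398b, miR408a-3p, miR166f-p5, miR171a, miR393a) and the 16 entries above the range under all scalings were named after their values were seen. All members and lists were chosen with earlier results of these data known.

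Same-numbered libraries did not deviate together (correlations -0.124 to 0.269), so numbers were not taken as pairs. Alternatives were RLE scaling, scaling to conserved families, leaving out fragment-like families, no filter, a filter of 10 CPM in 2 libraries, DESeq2 1.42.0, limma-voom (limma 3.58.1), fits without robust estimation, with 6 libraries, with a replicate block or with reads summed over loci, and leaving out each library. Where that leaves 1 library in a group, it is assumed to vary like the other groups. Counts outside the parental range under other scalings, and shares with each sequence counted once, were chosen after seeing the data.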

Additional observations from a re-analysis of the deposited data

Results flagged for a closer look

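For 2 entries the young allotetraploid's difference was not the same against the parents, by the test of C. hystrix minus C. sativus. PC-169-5p differed between the parents by 10.37 on the log2 scale (edgeR adjusted p = 0.0013), with 10880 and 23784 CPM in C. hystrix and 23.6 and 0 CPM in C. sativus. miR166a, the main entry, differed by 2.43 (edgeR adjusted p = 0.044), with 640711 and 622145 CPM in C. hystrix and 151078 and 83361 CPM in C. sativus. The call of PC-169-5p held in 19 of 19 alternatives and that of miR166a in 2 of 19. No test for an outlying library was made within groups of 2.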

How the results depend on the processing

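How many entries passed the adjusted threshold depended on the setting, while the direction of miR408 and miR408-5p was kept in all 19 alternatives. Calls against both parents alike (2 entries) numbered 4 with a filter of 10 CPM, 11 with DESeq2, 1 with limma-voom and 0 with the 6 compared libraries alone, and were 0 to 6 when 1 library was left out. Family calls against both parents (3) numbered 1 with limma-voom and 0 to 4 without 1 library. Against C. hystrix (3) the count was 5 with a filter of 10 CPM, 17 with DESeq2, 0 with 6 libraries and 0 to 13 without 1 library. Against C. sativus (3) it was 10 with RLE scaling, 14 with scaling to conserved families, 10 without fragment-like families, 7 without a filter, 9 with a filter of 10 CPM, 37 with DESeq2, 10 with limma-voom, 6 without robust estimation, 11 with reads summed over loci and 1 to 64 without 1 library. The 64, of which 45 were higher, came without the first C. sativus library, where the median of all entries was 1.15. Against the parents' mean (2) it was 9 with RLE scaling, 7 with scaling to conserved families, 5 with a filter of 10 CPM, 30 with DESeq2, 0 with 6 libraries and 0 to 62 without 1 library. For C. hystrix minus C. sativus (2) it was 1 under RLE scaling, scaling to conserved families, fragment-like families left out, no filter, the 10 CPM filter, limma-voom, no robust estimation, 6 libraries and summed loci, and 1 to 47 without 1 library. With the replicate block the counts were 5 against C. hystrix, 11 against C. sativus, 13 against the parents' mean and 4 against both alike, but same-numbered libraries did not deviate together, so the block rests on numbers alone. Entries outside the parental range (68) numbered 58 to 64 under other scalings and 81 to 88 without 1 parental library. Signs turned for some entries whose log2 fold change was not called. Against C. sativus, miR172b was -0.04 with RLE scaling and with DESeq2, -0.63 with scaling to conserved families, -0.62 without fragment-like families, -0.03 without a filter, -0.02 with the 10 CPM filter and -0.07 with summed loci, and -0.66 to 1.61 without 1 library. miR396e-p3 was -0.58 with scaling to conserved families and without fragment-like families, -0.00 without a filter, -0.05 with summed loci and -0.67 to 1.77 without 1 library. miR162 was -0.54 with scaling to conserved families, -0.49 without fragment-like families and -0.36 to 1.27 without 1 library. Against C. hystrix, without fragment-like families, miR162 was -0.05, miR166g -0.02 and miR171c -0.30; miR171c was -0.19 with scaling to conserved families, and miR827 was 0.43 with limma-voom. Without 1 library the ranges against C. hystrix were -0.17 to 0.42 for miR171c, -2.13 to 0.37 for miR169f-p3, -0.98 to 0.05 for miR2916-p3 and -3.05 to 7.27 for miR827. Against C. sativus they were -0.03 to 3.74 for miR159a, -0.84 to 0.05 for miR168, -1.09 to 1.15 for miR169f-p3, -0.13 to 4.27 for miR171c, -2.04 to 0.73 for miR2916-p3, -2.82 to 0.62 for miR5368-p3 and -2.02 to 0.76 for the miR156 family. The cause of these shifts was not tested. The second C. sativus library, with 99196 reads, had none of miR390a, miR530b or miR171d-p5, and a count of 0 there allows up to 15.2 CPM (3 reads).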
